A study of Mus musculus with 8 samples.

Results

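The 10 genes described here encode the core transcription factors of the heart, Nkx2-5, Gata4, Gata6, Tbx5, Tbx20, Mef2c, Hand1, Hand2, Isl1 and Hopx. They were chosen by name, with no threshold on a measured value but with earlier results of these data known. All 10 were found among the 20215 genes measured. RNA was sequenced in 8 libraries of mouse E14 embryonic stem cells (ESCs) and of embryoid bodies (EBs), clumps of these cells grown from hanging drops that form a mixture of tissues. WT cells and cells labelled Uhrf1 KO were each sampled as undifferentiated ESCs and as EBs at weeks 1, 2 and 3, so that every group held 1 library. The comparison asks how loss of Uhrf1, the protein that recruits the maintenance DNA methyltransferase Dnmt1 to newly copied DNA, bears on the heart programme of differentiating cells. All 8 libraries are labelled as E14 cells or EBs made from them, whether the KO cells were a single clone is not given in the sources used here, and ESCs were grown on gelatin or on mouse embryonic fibroblasts (MEFs).

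Cardiac transcription factors turn mesoderm into heart muscle. Gata4, Gata6, Nkx2-5, Tbx5, Tbx20 and Mef2c bind one another and the enhancers of contractile genes, while Isl1 marks the progenitors of the second heart field and Hand1 and Hand2 pattern the ventricles. Several of them also act elsewhere, since Gata4 and Gata6 serve the extraembryonic endoderm, Hand1 the trophoblast and Isl1 motor neurons. All 10 were therefore read beside markers of those tissues.

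Levels are given as RPKM, read counts scaled to the length of the transcript and to the mapped reads of the library. With 1 library per group the comparisons between libraries carry no p-value. Instead, a gene was counted as higher or lower when RPKM + 1 differed by 1.5-fold or more between libraries. Only genes that reached 1 RPKM in at least one of them were tested. Over all genes tested, 3.84% were higher and 2.29% lower in KO ESCs, and 8.37% and 6.22% in KO at week 1. These shares were 10% and 6.42% at week 2, and 7.65% and 7.69% at week 3. Every count of a gene list below is to be read beside them. Ratios of RPKM are given with 95% Clopper-Pearson intervals, which cover counting error only and not the variation between cultures. Depth was estimated from the values at 12600000 to 178700000 reads, deepest in the ESC libraries and shallowest in KO EBs at week 1. Uhrf1 RNA was lower in KO at every stage, at 78.8 RPKM in WT and 45.2 in KO ESCs, 43.8 and 27.1 at week 1, 36.8 and 34.6 at week 2, and 41.0 and 31.0 at week 3. A value for the whole gene does not show whether the deleted part was transcribed, so it does not check the KO label. The heart tissue of the EBs itself was visible in both genotypes, since 30 cardiomyocyte genes summed to 376 RPKM in WT ESCs and 4247 in WT EBs at week 1, and to 415 and 12148 in KO. In such mixed tissue, fewer cells of a type and less RNA per cell cannot be told apart.

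Sequence at the start sites was available from the RefSeq table for 6 of the 10 factors, in 9 windows of 300 bases from 250 before to 50 after the start. The windows came from GRCm38.p6, and each matched mm9 exactly 1 time. Windows of Nkx2-5, Hand2 and Hopx are shown because the results turn on these genes, Nkx2-5 crossing from above WT to below it, Hand2 with a KO deficit past 1.5-fold at week 3 and Hopx with a KO excess at every stage. Capitals mark matches, on either strand, to the sites of GATA factors (spelled AGATAA or else TGATAA), to the half-site of T-box factors (spelled AGGTGT), to a site of Nkx2-5 (spelled TNAAGTG), to an E-box of Hand factors (spelled CATCTG), to the MEF2 consensus or to the core promoter box spelled TATAAA.
Nkx2-5, chr17:26978461-26978760, minus strand: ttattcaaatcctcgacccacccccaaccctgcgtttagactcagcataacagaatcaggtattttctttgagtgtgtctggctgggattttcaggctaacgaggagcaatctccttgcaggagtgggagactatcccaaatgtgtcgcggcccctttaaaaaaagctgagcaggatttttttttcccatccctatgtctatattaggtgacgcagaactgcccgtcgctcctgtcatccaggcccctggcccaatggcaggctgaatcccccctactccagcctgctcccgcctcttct
Hand2, chr8:59799530-59799829, plus strand: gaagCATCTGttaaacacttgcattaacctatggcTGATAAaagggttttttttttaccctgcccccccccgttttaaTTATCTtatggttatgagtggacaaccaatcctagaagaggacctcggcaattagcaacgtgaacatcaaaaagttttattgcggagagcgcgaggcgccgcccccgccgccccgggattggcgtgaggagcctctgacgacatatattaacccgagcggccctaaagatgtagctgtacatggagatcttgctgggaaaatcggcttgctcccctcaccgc
Hopx, downstream start, chr5:77524243-77524542, minus strand: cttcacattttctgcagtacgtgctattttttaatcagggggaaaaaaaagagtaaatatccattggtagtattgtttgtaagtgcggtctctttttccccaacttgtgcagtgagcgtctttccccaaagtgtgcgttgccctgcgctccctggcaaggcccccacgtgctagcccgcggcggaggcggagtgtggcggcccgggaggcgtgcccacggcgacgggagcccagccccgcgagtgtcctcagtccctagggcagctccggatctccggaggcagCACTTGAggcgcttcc
Hopx, upstream start, chr5:77544099-77544398, minus strand: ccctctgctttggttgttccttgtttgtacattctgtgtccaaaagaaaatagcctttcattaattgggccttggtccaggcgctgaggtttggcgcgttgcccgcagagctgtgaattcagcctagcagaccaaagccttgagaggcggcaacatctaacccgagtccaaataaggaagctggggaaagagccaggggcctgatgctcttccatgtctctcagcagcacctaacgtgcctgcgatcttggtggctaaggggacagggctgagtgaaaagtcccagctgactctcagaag
The Hand2 window held CATCTG, a motif found in 17.2% of all 32851 windows, as well as TGATAA (9.05% of windows) on the plus strand and AGATAA (11.2%) on the minus strand. The downstream Hopx window held TNAAGTG, found in 11.5% of windows, and neither the upstream Hopx window nor that of Nkx2-5 held any of the 7 motifs. CpG dinucleotides, where DNA methylation is placed, numbered 9 in the Nkx2-5 window, 17 in that of Hand2, and 21 and 8 in the downstream and upstream Hopx windows, against a median of 7 over all windows. The Isl1 window was the richest in CpG of the 9, with 37, a number reached by 5.58% of windows, and it also held TGATAA, as well as AGATAA. Tbx20 had 26 CpG and no match. The 3 Mef2c windows had 1, 10 and 4 CpG. No window of Gata4, Gata6, Tbx5 or Hand1 is shown.

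In ESCs most of the factors were close to silent. Tbx5, Mef2c and Hand2 stayed under 0.04 RPKM in both genotypes, from 10 to 38 estimated reads, and Nkx2-5, Tbx20 and Isl1 stayed under 1 RPKM. By week 1 every one of the 10 had passed 1.5-fold upward in both WT and KO, where 33.7% of all genes tested did so in WT and 34% in KO. None went down, against 26.8% of all genes in WT and 27.1% in KO. The rise ended a silent state in some and strengthened an existing signal in others, from 4.19-fold (3.84 to 4.58) for Hopx to 1495-fold (809 to 3109) for Hand2 in WT. A limma model over all 8 libraries, with stage and genotype terms and 3 residual degrees of freedom, called 9 of the 10 higher in EBs than in ESCs, where 43.9% of all genes tested were called, and 0 lower, where 28.7% were. The largest of these effects was that of Hand2, with a log2 difference of 4.22 ± 0.21 (SE, limma adjusted p = 0.000103, n = 8), and the smallest that of Nkx2-5, with 1.05 ± 0.29 (limma adjusted p = 0.0203). Hand1 was the exception, at 1.15 ± 0.44 (limma adjusted p = 0.0570). EB libraries were higher than the ESC library of the same genotype in 6 of 6 cases for 9 of the factors and in 4 of 6 for Hand1.

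**Figure D1:**
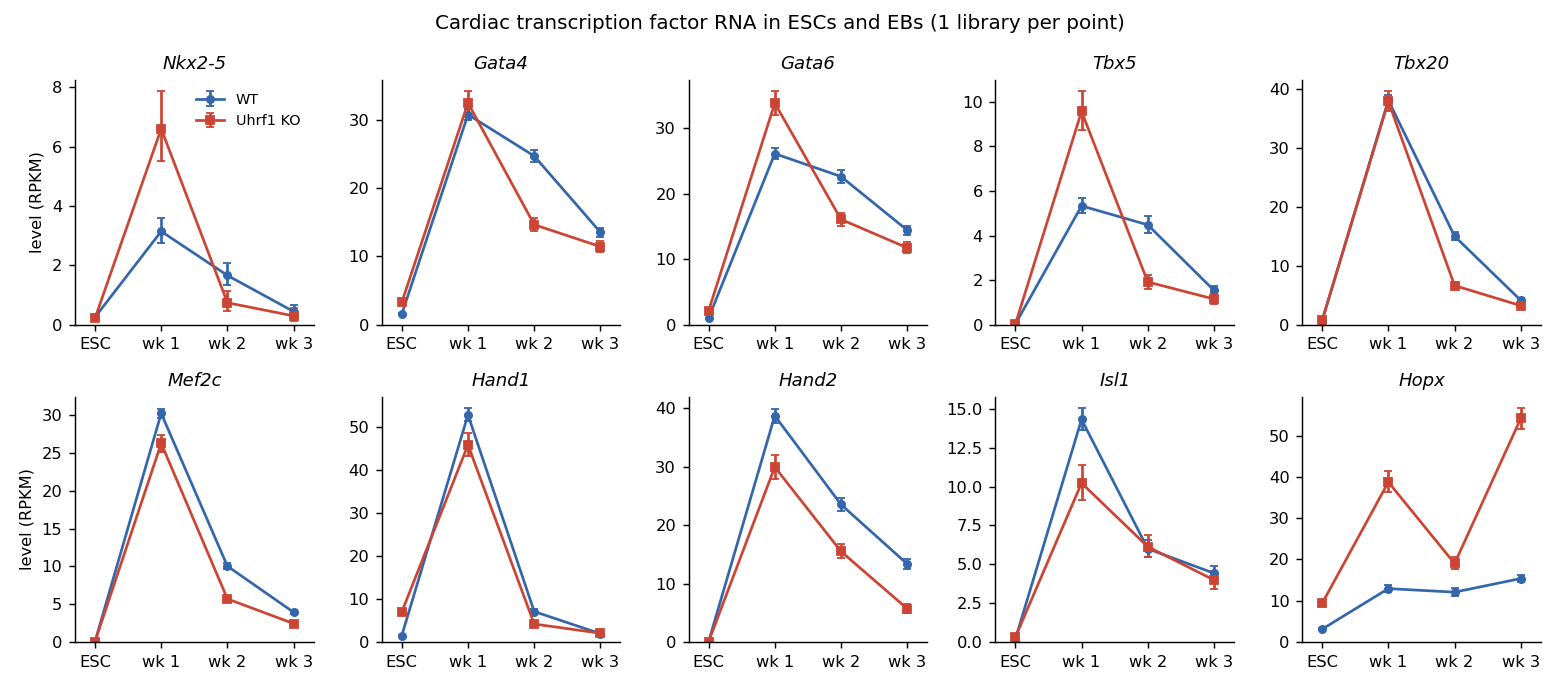
Level of each of the 10 factors in RPKM (vertical axes, each from 0 with its own scale) at ESC and EB weeks 1, 2 and 3, in WT (blue circles) and Uhrf1 KO (red squares). Points are single libraries and bars are 95% counting intervals. For 9 factors the highest point of each line lies at week 1, and for Hopx it lies at week 3.

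Gene positions below are those of GENCODE M1 on mm9. Nkx2-5 (chr17:26975609-26978510, minus strand), the homeodomain factor that is among the first marks of cardiac progenitors, was the scarcest of the group in every EB library. Its level was 0.251, 3.14, 1.66 and 0.443 RPKM in WT ESCs and at weeks 1 to 3, and 0.216, 6.60, 0.740 and 0.297 in KO. KO thus began level with WT, stood above it at week 1 and below it at week 2. The week 1 ratio of KO to WT was 2.10 (1.68 to 2.63), and at week 2 WT exceeded KO 2.24-fold (1.36 to 3.71). At week 3 the KO value rested on 8 estimated reads, and the interval of the ratio, from 0.248 to 1.46, held no direction.

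Tbx5 (chr5:120284672-120335227, plus strand), the T-box factor of the first heart field, the left ventricle and the atria, followed the same turn. Its level was 0.0253, 5.33, 4.48 and 1.54 RPKM in WT and 0.0163, 9.57, 1.92 and 1.15 in KO. The KO week 1 library held the highest value of the 8, and by week 2 the KO level had dropped under that of WT. The ratio of KO to WT was 1.79 (1.61 to 2.01) at week 1, and at week 2 WT exceeded KO 2.34-fold (1.95 to 2.83).

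Tbx20 (chr9:24527648-24578746, minus strand), the T-box factor needed for the growth of the heart tube, reached the same week 1 level in both genotypes. It was 0.666, 38.0, 15.0 and 4.13 RPKM in WT and 0.715, 37.9, 6.64 and 3.23 in KO. Only the descent differed, most at week 2, where WT exceeded KO 2.26-fold (2.05 to 2.49). The week 1 ratio was 0.995 (0.945 to 1.05).

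Mef2c (chr13:83643033-83806684, plus strand), the MADS-box factor of the anterior second heart field and of muscle and endothelium, passed 1.5-fold between the genotypes at week 2 alone. Its level was 0.0345, 30.2, 10.02 and 3.92 RPKM in WT and 0.0240, 26.3, 5.69 and 2.42 in KO. The week 1 ratio of KO to WT was 0.869 (0.828 to 0.911). The WT excess was 1.76-fold (1.62 to 1.92) at week 2 and 1.62-fold (1.41 to 1.85) at week 3, where it did not pass 1.5-fold on RPKM + 1. Endothelial markers were also lower in KO. All 6 were tested in EBs, and over all genes 6.22%, 6.42% and 7.69% were lower at weeks 1, 2 and 3. Of the 6, 4 were lower and 0 higher at week 1 (sum 208 RPKM in WT and 133 in KO). At week 2, 3 were lower (140 and 105) and at week 3, 0 (70.9 and 63.8), and none of these markers was at 0. Their part in the Mef2c difference was not tested.

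The zinc-finger factors Gata4 (chr14:63817759-63890529, minus strand) and Gata6 (chr18:11052508-11085633, plus strand) moved as a pair. Gata4 was 1.54, 30.8, 24.7 and 13.5 RPKM in WT and 3.26, 32.5, 14.7 and 11.4 in KO. Gata6 was 0.998, 26.1, 22.6 and 14.4 RPKM in WT and 2.12, 33.8, 16.1 and 11.7 in KO. Both were higher in KO ESCs and within 1.5-fold of WT at weeks 1 and 3, and Gata4 was lower in KO at week 2. In ESCs the ratio of KO to WT was 2.12 (1.96 to 2.29) for Gata4 and 2.12 (1.92 to 2.35) for Gata6. At week 2 WT exceeded KO 1.69-fold (1.57 to 1.82) for Gata4, which passed the threshold, and 1.41-fold (1.30 to 1.52) for Gata6, which did not. At week 3 the ratio of KO to WT was 0.844 (0.773 to 0.922) for Gata4 and 0.814 (0.744 to 0.889) for Gata6. Gata6 shares 58 exon bases with the antisense gene 1010001N08Rik, and no source states that the libraries kept strand, so reads of that stretch may belong to either.

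Visceral endoderm also uses Gata4 and Gata6, and its markers differed in the same libraries. Of its 10 markers in the table, 7 were lower and 0 higher in KO at week 2 (6.42% and 10% of all genes). Their sum was then 6021 RPKM in WT and 1306 in KO. At week 3, 5 of 9 were lower and 0 higher (7.69% and 7.65%), with sums of 1121 and 85.4 RPKM. At week 1, of 10 tested, 4 were lower and 2 higher, with a median log2 difference of -0.31. The sum was 794 RPKM in WT and 1238 in KO, of which Afp, the fetal serum protein, made up 147 and 894, while Ttr, the thyroid hormone carrier, was 366 and 173 and Apoa1 186 and 100. In ESCs the sum was 4.20 RPKM in WT and 6.09 in KO, and 0 of 3 tested passed. The apolipoproteins Apob (75.4 to 6.16 RPKM from WT to KO at week 2) and Apoa1 (834 to 91.8) differed most. No marker was at 0, and their part in the Gata4 and Gata6 differences was not tested.

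Hand1 (chr11:57642207-57646320, minus strand), a basic helix-loop-helix factor of the left ventricle and of trophoblast giant cells, gave the largest ratio in ESCs. Its level was 1.48, 52.9, 7.08 and 1.91 RPKM in WT and 6.97, 45.9, 4.17 and 2.02 in KO. The ESC ratio of KO to WT was 4.71 (4.27 to 5.20), the week 1 ratio was 0.868 (0.812 to 0.927), and at week 2 WT exceeded KO 1.70-fold (1.40 to 2.05). Trophoblast markers were higher in KO ESCs too. In that comparison 4 of the 5 tested, out of 9 in the table, passed 1.5-fold upward and 0 downward. Over all genes tested 3.84% and 2.29% did so. Plac1 and Prl3d1 reached 1 RPKM in KO only, so they entered the count through the library where they were high. The sum of the 9 was 17.7 RPKM in WT and 47.7 in KO, with the spongiotrophoblast gene Tpbpa at 0 in WT. Krt7, a keratin of simple epithelia and trophoblast, was 11.1 RPKM in WT and 34.6 in KO, and Plac1, a placental gene, 0.403 and 3.04. At week 2 the trophoblast sum was 52.2 RPKM in WT and 61.0 in KO. Of 6 tested, 4 were lower and 1 higher (6.42% and 10% of all genes), and Tpbpa and Prl3d1 reached 1 RPKM in WT only. The part of these cells in the Hand1 difference was not tested.

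Hand2 (chr8:59799780-59803314, plus strand), the relative of Hand1 that is required for the right ventricle, showed no ESC difference and the only KO deficit that passed 1.5-fold at week 3. It was 0.0259, 38.7, 23.5 and 13.3 RPKM in WT and 0.0250, 30.0, 15.5 and 5.69 in KO. KO was below WT at each EB stage, with a KO to WT ratio of 0.773 (0.717 to 0.833) at week 1, 0.659 (0.601 to 0.721) at week 2 and 0.426 (0.369 to 0.491) at week 3. The interval at week 3 lay below those of the earlier weeks, which overlapped. At week 2 its log2 difference on RPKM + 1, at -0.57, lay just outside the threshold, and that of Nkx2-5, at -0.61, just inside.

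Isl1 (chr13:117088478-117099896, minus strand), the LIM homeodomain factor of the second heart field and of motor neurons, lay close to WT after week 1. Its level was 0.174, 14.3, 5.999 and 4.42 RPKM in WT and 0.300, 10.2, 6.13 and 3.99 in KO. The ratio of KO to WT was 1.72 (1.28 to 2.30) in ESCs, where both libraries were under 1 RPKM and the gene was not tested. It was 0.714 (0.631 to 0.803) at week 1, 1.02 (0.883 to 1.19) at week 2 and 0.902 (0.752 to 1.07) at week 3, none past 1.5-fold. The 10 neuronal markers in the table summed to 187 RPKM in WT ESCs and 142 in KO ESCs, of which Stmn2 made up 144 and 113. These sums exceeded those of every EB library, so the list does not mark neurons alone here. At week 1 the sums were 6.98 in WT and 5.34 in KO, and 2 of 3 tested were lower in KO (6.22% of all genes). At week 2, 3 of 4 were higher in KO (15.2 and 35.0 RPKM, 10% of all genes). At week 3, 5 of 6 were lower (131 and 58.1 RPKM, 7.69% of all genes). The motor neuron genes Mnx1 and Lhx3 were at 0 in KO EBs at week 1 and in WT EBs at week 2, and the part of neurons in the Isl1 levels was not tested.

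Hopx (chr5:77515468-77544186, minus strand), a homeodomain protein that does not bind DNA and acts with other factors in cardiac progenitors, stood apart from the other 9. Its level was 3.08, 12.9, 12.1 and 15.4 RPKM in WT and 9.33, 38.7, 19.0 and 54.1 in KO. KO exceeded WT at all 4 stages, and both genotypes were highest at week 3, when the other 9 factors had fallen from their week 1 levels. The ratio was 3.03 (2.82 to 3.25) in ESCs, 3.00 (2.74 to 3.28) at week 1, 1.58 (1.42 to 1.75) at week 2 and 3.52 (3.26 to 3.81) at week 3. The week 2 excess no longer passed 1.5-fold when libraries were scaled by median ratios or to an equal RPKM total. The annotation places the antisense gene Gm15830 on 388 exon bases of Hopx, whose reads cannot be told apart without strand.

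Of the calls past 1.5-fold, those higher in KO lay mostly in ESCs and at week 1, and those lower in KO mostly at week 2. In ESCs 4 factors were higher and 0 lower in KO, of the 4 that could be tested, against 3.84% of all genes tested higher and 2.29% lower. They were Gata4, Gata6, Hand1 and Hopx. Gata6, at 0.998 RPKM in WT, passed the filter on low values through KO only, the library where it was high. Gata4, Hand1 and Hopx passed it in both libraries. At week 1, with all 10 tested, Nkx2-5, Tbx5 and Hopx were higher and 0 lower (8.37% and 6.22% of all genes). The group as a whole showed no excess there, since 5 of the 10 had the larger RPKM in KO. At week 2 Nkx2-5, Gata4, Tbx5, Tbx20, Mef2c and Hand1 were lower, 6 of 10 against 6.42% of all genes, and Hopx alone was higher, against 10%. Nkx2-5 passed the filter on low values there through WT only, and with a filter at RPKM 5 the lower count was 4. At week 3, with 9 tested, Hopx was higher and Hand2 lower (7.65% and 7.69%). The median log2 difference over the 10 was 0.09 in ESCs, 0.03 at week 1, -0.63 at week 2 and -0.23 at week 3, beside 0.04, 0.01, 0.05 and 0.02 over all genes tested. The 2 medians cover unlike sets, since that of the factors also takes in those too low to be tested, in ESCs all but 4. Those 4 were at 0.75 (Gata4), 0.64 (Gata6), 1.68 (Hand1) and 1.34 (Hopx) in ESCs.

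**Figure D2:**
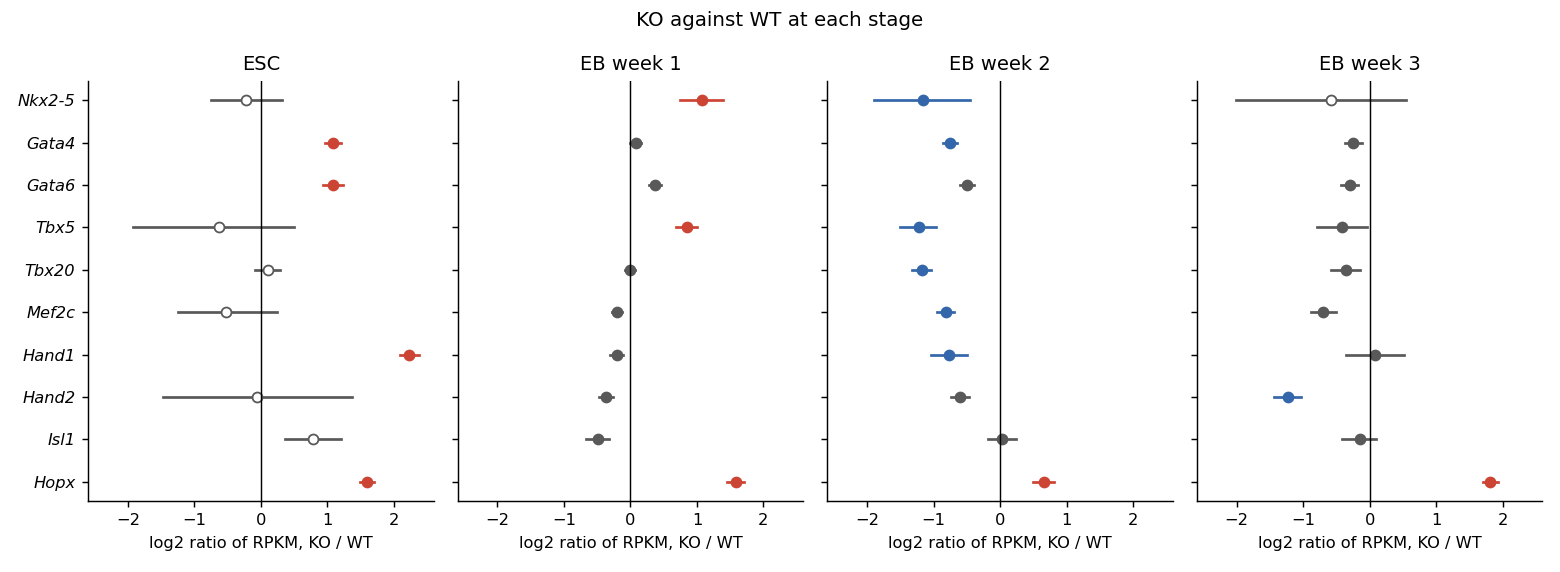
Log2 ratio of RPKM in KO to WT for each factor (rows) at the 4 stages (panels), with 95% counting intervals. Red and blue points passed 1.5-fold on RPKM + 1 upward and downward, grey points did not, and open points were under 1 RPKM in both libraries. At week 2 the 6 blue points lie left of 0, and Hopx lies right of 0 at each stage.

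The mean KO to WT difference over the 4 stages was the one genotype effect the libraries allowed to be tested. The limma model called 0 of 13249 genes at an adjusted p under 0.05 in either direction, while 1193 were higher and 791 lower at an unadjusted p under 0.05. Hopx had the largest effect of the 10, with a log2 difference of 1.31 ± 0.19 (SE, n = 8, higher in 4 of 4 stages) and a limma adjusted p of 0.117. Hand2 followed with -0.51 ± 0.18 (limma adjusted p = 0.304) and Mef2c with -0.36 ± 0.14 (limma adjusted p = 0.330). Both had a lower RPKM in KO at the 3 EB stages, and in ESCs the interval of the ratio held no direction for either. The other 7 had adjusted p-values from 0.499 to 0.983 in the same limma fit. A factor above WT at one stage and below at another, such as Nkx2-5, averages out in this model.

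The descent from week 1 was read within each genotype. From week 1 to week 2, 6 factors passed 1.5-fold downward in WT and all 10 in KO, where 10% and 7.31% of all genes did so, and 0 passed upward, as 21.3% and 21.2% of all genes did. From week 2 to week 3, 8 of 10 went down in WT (10.1% of all genes) and 4 of 9 in KO (7.31%), and Hopx in KO, up 2.85-fold (2.61 to 3.12), was the sole factor to pass upward (7.19% of all genes, and 13.2% in WT).

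Expressed as the share of the week 1 level left at week 2, 9 of the 10 factors kept less in KO than in WT, where 45.7% of the 10721 genes at 1 RPKM or more at week 1 in both genotypes did so. Tbx5 kept 84.0% (75.6 to 93.3) in WT and 20.0% (16.5 to 24.1) in KO, and Nkx2-5 kept 52.8% (40.5 to 68.6) and 11.2% (6.92 to 18.1). These had the largest relative difference, and both had stood highest above WT at week 1, apart from Hopx. The week 1 level is the divisor of the share, so a high KO value at week 1 lowers the KO share by itself. The shares thus restate the folds given above and are not separate evidence. Gata4 kept 80.3% in WT and 45.1% in KO, Gata6 86.6% and 47.5%, and Hopx 93.3% and 49.1%. Tbx20 kept 39.4% and 17.5%, Mef2c 33.1% and 21.7%, and Hand1 13.4% and 9.09%. The intervals of Hand2, at 60.8% (57.4 to 64.3) and 51.7% (46.7 to 57.4), overlapped. Isl1 was the one factor that kept more in KO, 59.9% (51.2 to 70.5) against 41.9% (37.7 to 46.3). The medians over the 10 were 56.8% in WT and 33.4% in KO. At week 3, 7 of 10 kept less of the week 1 level in KO, against 47.2% of all genes, with medians of 29.9% and 15.5%. The comparison of shares between genotypes rests on 4 libraries, and the difference was not tested.

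**Figure D3:**
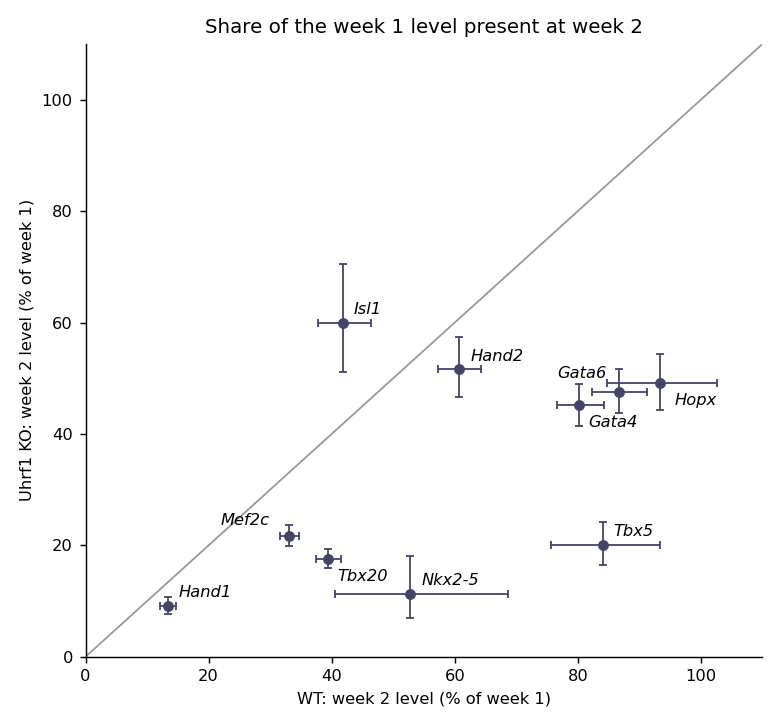
Share of the week 1 level present at week 2 in WT (horizontal axis, %) and Uhrf1 KO (vertical axis, %) for each factor, with 95% counting intervals as bars and the line of equal shares in grey. Isl1 lies above the line and the other 9 below it, with Tbx5 and Nkx2-5 far to its right.

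The factors followed similar courses. Over the 8 libraries the 36 pairs without Hopx had a median Pearson r of 0.925 on the log2 scale (0.577 to 0.993), highest for Gata4 with Gata6 and for Tbx20 with Mef2c, both 0.993. The 9 pairs with Hopx had a median of 0.515 (0.237 to 0.673), and over the 6 EB libraries alone, -0.23 (-0.55 to -0.01). These points share the contrast of ESCs with EBs and the depth of each library, and are a description. The levels of the group also turned over. The sum of the 10 was 8.28 RPKM in WT ESCs, 253 at week 1, 127 at week 2 and 73.1 at week 3, and 23.0, 271, 90.5 and 96.1 in KO. Hand1 led at week 1 in both genotypes, with 20.9% of the sum in WT and 16.9% in KO. At week 2 Gata4 led in WT with 19.4% and Hopx in KO with 21.0%, and at week 3 Hopx led in both, with 21.0% and 56.3%. The levels of Hand2 and Tbx20 at week 1 in WT, 38.7 and 38.0 RPKM, lay within each other's counting intervals, as did those of Gata4 and Gata6 in KO at week 3.

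Of 10630 genes at 5 RPKM or more in some library, the 3 closest to each factor by Pearson r over the 8 libraries were taken. The nearest to Tbx5 were Apobec2 (r = 0.998), Smyd1 (0.998), a muscle histone methyltransferase, and Mylk3 (0.995), the cardiac myosin light chain kinase. Smyd1 was also close to Tbx20 (0.990), behind Mef2c (0.993) and Fzd7 (0.992), a Wnt receptor. Smyd1 measured 0.271, 34.4, 18.5 and 5.15 RPKM in WT and 0.314, 68.2, 6.71 and 3.13 in KO, the same turn from above WT at week 1 to below it at week 2 that Tbx5 made. Nkx2-5 was closest to the unconventional myosin gene Myo18b, Asb12 and Palm2 (0.991, 0.991 and 0.990). Gata6 was closest to Myl6 (1.00), Rsu1 and Ctnnd1, Gata4 to Cobll1 (0.995), Myl6 and Igf2bp3, and Mef2c to Zwint (0.994), Kdr (0.993), the VEGF receptor of endothelium and cardiac mesoderm, and Hapln1. Hand2 was closest to Tspan18 (0.998), Trak2 and Crispld1, Isl1 to Arfgap2 (0.998), Arhgap6 and Ywhab, and Hand1 to 1810058I24Rik (0.984), Zc3h7b and Fermt3. Hopx had the weakest neighbours, Akr1b10 (0.960), Ring1 and 9230110C19Rik. Ranked by Spearman's rho, where many genes tie, 0 of these 30 neighbours were retained, and 5 of 30 over the 6 EB libraries.

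Cardiomyocyte genes turned with a wider swing than the factors themselves, and control of the listed genes by these factors was not tested. Of 29 tested at week 1, 25 were higher (8.37% of all genes) and 0 lower in KO, with a median log2 difference of 1.33. At week 2, of 28, 0 were higher and 19 lower (6.42% of all genes), with a median of -0.82. Myl2, the ventricular regulatory light chain, was 86.8 RPKM in WT and 463 in KO at week 1, then 322 and 71.6 at week 2. Tnni3, cardiac troponin I, was 31.4 and 212 at week 1, and Myh6, the atrial and adult mouse heavy chain, 89.9 and 383. Their sum was 4247 RPKM in WT and 12148 in KO at week 1, 3255 and 2164 at week 2, and 1727 and 1478 at week 3, when 2 of 28 were higher and 10 lower. Of the 25 with an RPKM of 1 or more at week 1 in both genotypes, 24 kept a smaller share at week 2 in KO. The high KO level at week 1 is the divisor of that share and lowers it by itself. In ESCs 4 of 15 were higher and 0 lower, among them Actc1, cardiac actin, at 2.68 and 5.88 RPKM. At week 1 the smooth muscle genes, of which Acta2 and Tagln also mark young cardiomyocytes, were higher in KO as well, 4 of 5 tested, with a sum of 349 and 778 RPKM and none at 0, and skeletal muscle genes were near 0, with none tested and a sum of 1.12 and 0.930.

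Among 31 further cardiac factors, 7 were higher and 3 lower in KO of 26 tested at week 1. Over all genes 8.37% and 6.22% were so, and the median log2 difference of the list was 0.20. Tbx2, a T-box repressor of the atrioventricular canal, was 3.45 RPKM in WT and 9.85 in KO, and Nr2f2, a nuclear receptor of the atria, 2.98 and 8.16. Hey2, a Notch target of compact ventricular muscle, was 9.77 and 3.20, and Nfatc1, a factor of the endocardium, 4.37 and 1.57. At week 2, 4 were higher and 7 lower of 28 (10% and 6.42% of all genes), with a median of -0.35. Smyd1, at 18.5 and 6.71 RPKM, Foxc1 (5.56 and 2.31) and Irx3 (2.75 and 0.954) were lower, while Tcf21, which marks the epicardium and cardiac fibroblasts, was 15.9 and 55.7. At week 3, 1 of 25 was higher (Tcf21, 12.1 and 18.8) and 1 lower (Zfpm1, the Gata cofactor, 4.45 and 1.49). Neither count exceeded the share of all genes, 7.65% higher and 7.69% lower. In ESCs 0 of 13 passed in either direction.

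Of the signals that induce or pattern the heart, Bmp4 was the sole one of 7 tested to pass in ESCs, at 4.99 RPKM in WT and 8.55 in KO. At week 1, 4 of 14 were higher and 2 lower, where 8.37% and 6.22% of all genes were. Wnt2, a Wnt of the second heart field, was 21.1 and 52.4 RPKM, Fgf10 6.25 and 14.1, the Notch ligand Jag1 6.90 and 14.3, and the endocardial growth factor Nrg1 3.02 and 0.888. At week 2, 1 of 15 was higher (Nodal, 1.37 and 3.74) and 2 lower (Shh, 18.8 and 8.23, and Bmp10, 1.94 and 0.710). Over all genes 10% were higher and 6.42% lower there, and counts this small lie near those shares. At week 3, 7 of 15 were higher and 0 lower (7.65% and 7.69% of all genes), with a median log2 difference of 0.53. They included Bmp4 (11.6 and 23.0 RPKM), Bmp7 (4.47 and 8.09) and the Wnt inhibitor Dkk1 (5.14 and 9.42). Of 11 genes of early and cardiac mesoderm, 3 were tested at week 1, when Pdgfra was 8.82 RPKM in WT and 20.6 in KO, the sole one to pass, and Kdr was 49.7 and 34.1.

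**Figure D4:**
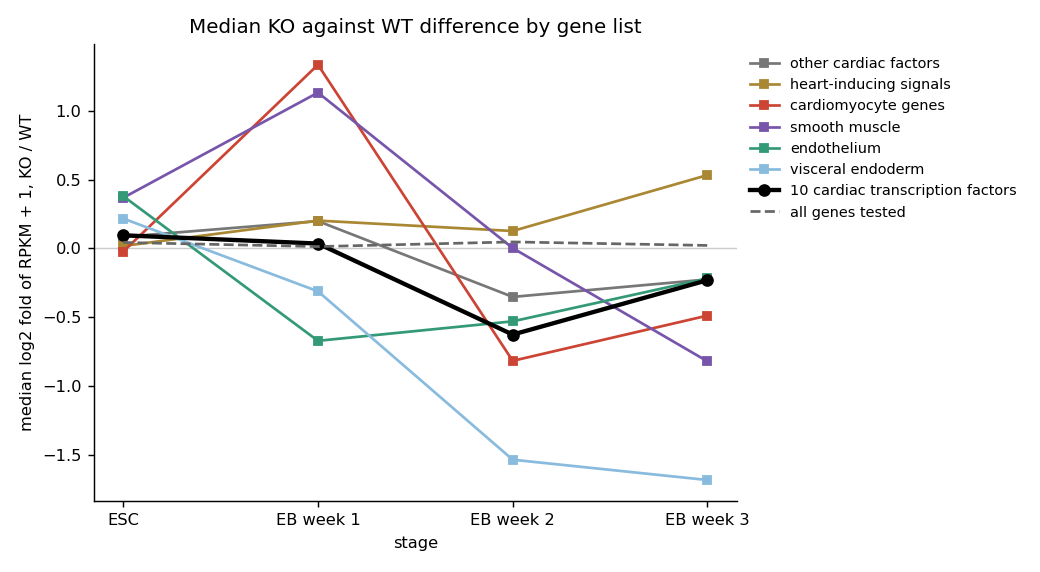
Median log2 difference of RPKM + 1 between KO and WT at the 4 stages for the 10 cardiac transcription factors (black) and for 6 gene lists, with the median of all genes tested as a dashed line. The black line takes in all 10 factors, also those too low to be tested, and the other lines tested genes only. The cardiomyocyte genes go from 1.33 at week 1 to -0.82 at week 2, and the factors from 0.03 to -0.63.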

How the data were processed

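The 8 libraries, 1 per group, were made from poly(A) RNA, broken up and reverse transcribed from random hexamers. The authors mapped reads to mm9 (the submitters' notes name TopHat 1.1.4, Bowtie 0.12.7, SAMtools 0.1.18 and Cufflinks 1.1.0) and deposited log2 of RPKM + 1 per RefSeq gene. The unit was inferred from the values themselves, which after 2 to their power minus 1 lie on a grid of 0.0001. No column was left out.

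Depth was estimated from the smallest step of RPKM times length over 5676 genes with a single transcript. Estimated reads gave the 95% intervals, which cover counting error only. Those of ratios and shares were Clopper-Pearson intervals, and those of levels in single libraries were Poisson intervals. RPKM was not rescaled, and folds used a pseudocount of 1. Between libraries no test was possible. The stage and genotype model used limma 3.58.1 (R 4.3.3, mean trend, Benjamini-Hochberg adjustment) over 13249 genes that reached 1 RPKM in 2 or more libraries. Its error term is how the KO to WT difference of single cultures varies between stages, also for EBs against ESCs. The p-values therefore do not measure the variation between repeat cultures. The limma and fold steps were tested on simulated data. Python 3.11.15 was used for the rest. Motifs were searched in RefSeq promoter windows (GRCm38.p6) placed on mm9 by exact match.

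The 10 factors and the 12 lists of cardiac and other tissue genes were chosen with earlier results of these data known. Besides the 10 factors and Uhrf1, the genes named were the 3 closest to each factor by correlation and, at a stage, the 4 of a list that differed most. Tpbpa in ESCs and Mnx1 and Lhx3 at weeks 1 and 2 were added, after their values were seen, as markers at 0. Nanog was not analysed here.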

Additional observations from a re-analysis of the deposited data

Results flagged for a closer look

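For 4 factors the KO to WT difference had opposite signs at different stages, each past 1.5-fold. The difference between stages was not tested, since each group held 1 library. On the log2 scale of RPKM + 1, Nkx2-5 was 0.87 higher in KO at week 1 and at -0.61 at week 2, a distance of 1.49. Tbx5 was at 0.74 and -0.91 at the same weeks, a distance of 1.65. Gata4 was at 0.75 in ESCs and -0.72 at week 2, a distance of 1.46. Hand1 was at 1.68 in ESCs and -0.64 at week 2, the widest distance of the 4 at 2.33.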

How the results depend on the processing

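Groups held 1 library each, so the variation between cultures is unknown, and counts near 1.5-fold depended on settings. Of 196 values of the factors for KO against WT under the alternatives, 179 stayed called or uncalled as before. A further 12 lost the call, 5 gained one and 0 of those called turned sign. Changes of sign within the threshold were not counted, such as that of Isl1 at week 2, from 0.03 to -0.03 under median ratios. For changes between stages these numbers were 333, 14, 2 and 0 of 349. With a 2-fold threshold, factors higher in KO numbered 2 in ESCs, 1 at week 1 and 0 at week 2, those lower at week 2 numbered 1, and those lower from week 2 to week 3 numbered 4 in WT and 1 in KO. With a filter at RPKM 5, 2 were higher in ESCs. With libraries scaled by median ratios or to an equal RPKM total, 0 were higher at week 2 and 7 lower, Hand2 having joined. At week 3, 2 were lower with a pseudocount of 0.1 or an equal RPKM total, Mef2c having joined. Under the equal total, Nkx2-5 and Hand2 no longer passed from week 1 to week 2 in WT, which left 4 lower.

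An equal RPKM total moved the median log2 difference of all genes tested from 0.05 to -0.06 between KO and WT at week 2, from 0.02 to -0.10 at week 3 and from 0.02 to 0.24 between weeks 1 and 2 in WT. It changed the share of calls that were higher from 62.6% to 48.3% in ESCs, from 60.9% to 48.0% at week 2, from 49.9% to 35.9% at week 3, and from 68.0% to 83.7% between weeks 1 and 2 in WT. From ESCs to week 1 either scaling moved the WT median from 0.13 to about -0.08, and all 10 factors still passed upward. The 9 of 10 factors with a smaller kept share in KO, a comparison added after the data were seen, stayed 9 under both scalings and a pseudocount of 1. In limma, EB against ESC called 8 of the 9 factors tested without week 1 and 10 of 10 without week 2 or week 3. The genotype term called 0 factors in each of its alternatives. Of the 30 closest genes, 0 were shared when ranked by Spearman's rho and 5 over the 6 EB libraries.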

Other observations

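Some genes outside the heart programme also differed between KO and WT in the same EBs, with 1 library per group and no test. The stem cell factors Pou5f1, Sox2, Zfp42 and Esrrb summed to 1049 RPKM in WT ESCs and 1082 in KO, 23.6 and 16.0 at week 1, 50.2 and 132 at week 2, and 297 and 247 at week 3. Pou5f1 was 14.9 RPKM in WT and 62.9 in KO at week 2, when 3 of the 4 were higher in KO (10% of all genes). Macrophage genes were lower in KO at week 2 for 6 of 6 (6.42% of all genes), with a sum of 112 RPKM in WT and 45.1 in KO. Csf1r, the receptor that macrophages need to survive, was 23.3 and 6.84. Among genes of early mesoderm, Pdgfra, a receptor of mesoderm and mesenchyme, was higher in KO at weeks 2 and 3 as at week 1, at 19.6 RPKM in WT and 44.9 in KO at week 2 and 17.2 and 30.3 at week 3. T, the primitive streak factor, was 6.02 and 2.93 RPKM at week 2 and 6.54 and 11.6 at week 3.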
